A study of Mus musculus with 6 samples.

Results

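The 5 subunit genes of the muscle nicotinic acetylcholine receptor (Chrna1, Chrnb1, Chrnd, Chrng and Chrne) and 5 genes of the pathway that gathers the receptor at the synapse (Musk, Rapsn, Dok7, Lrp4 and Agrn) were followed in cultured mouse myotubes kept in insulin. All 10 lay lower after insulin on average, as did 50.6% of all genes tested. Of the 10, 6 passed the test as lower, as did 6.35% of all genes tested: Chrnb1, Chrnd, Chrng, Musk, Rapsn and Lrp4. The members were the probe sets of the deposited table whose platform symbol was exactly one of these 10 names. This gave 178 of the 241576 probe sets and 10 of the 20416 genes, and no probe set naming a member together with another gene had to be left out.

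The cells were C2C12, an established mouse myoblast line whose cells fuse to multinucleated myotubes in low serum. The labels give 10% fetal bovine serum for growth, 2% horse serum for fusion, and experiments on days 4 to 7 after the switch, in both groups. The 3 insulin cultures received 100 nM insulin for 48 h to bring about insulin resistance, the 3 control cultures were left untreated, and a medium change every 24 h is given for both. No genetic change is named for either group. The labels mention no nerve cells, so the cultures are a model without innervation.

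At the neuromuscular junction, a motor nerve releases acetylcholine onto a dense patch of receptors in the muscle membrane. The receptor is a ring of alpha, beta and delta subunits with either gamma, in the fetal form, or epsilon, in the adult form that replaces it as the synapse matures. Agrin from the nerve binds LRP4, which activates the kinase MuSK. DOK7 binds MuSK from the inside and keeps it active, and rapsyn, bound to the receptor, holds it in clusters. Muscle cells switch on the receptor genes when they differentiate, through E-boxes (CANNTG) that myogenic factors such as MyoD and myogenin bind, while ETS-family factors acting through the N-box (CCGGAA) take part in synapse-specific expression.

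The promoters are shown because 6 members fell together and because E-boxes are the element through which the receptor genes follow muscle differentiation. Whether E-boxes had a part in the changes was not tested. RefSeq's table for build GRCm38.p6 held 9 promoter windows for 7 of the 10 members, without Chrnd, Rapsn and Lrp4. Each window is the 250 bases before the transcript start that the table uses, 5′ to 3′ on the gene's own strand, with each CANNTG and each CCGGAA (searched on both strands) in capitals. That start is not always the outermost one of the gene: 29 bases of the Chrnb1 window, 19 of the Chrne window and 233 of the Musk window lie inside the gene's annotated span, and none of those of Chrna1 and Chrng. The windows shown are Chrna1 at chr2:73580339-73580588 (minus strand), Chrnb1 at chr11:69795938-69796187 (minus strand), Chrng at chr1:87205561-87205810 (plus strand) and Chrne at chr11:70619195-70619444 (minus strand), while Musk, at chr4:58285712-58285961 (plus strand), is described without its letters.
Chrna1: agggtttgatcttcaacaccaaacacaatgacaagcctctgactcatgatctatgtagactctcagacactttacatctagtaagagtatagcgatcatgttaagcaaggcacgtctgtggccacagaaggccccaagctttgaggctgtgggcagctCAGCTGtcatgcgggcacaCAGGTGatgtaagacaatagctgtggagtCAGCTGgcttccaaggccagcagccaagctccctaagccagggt
Chrnb1: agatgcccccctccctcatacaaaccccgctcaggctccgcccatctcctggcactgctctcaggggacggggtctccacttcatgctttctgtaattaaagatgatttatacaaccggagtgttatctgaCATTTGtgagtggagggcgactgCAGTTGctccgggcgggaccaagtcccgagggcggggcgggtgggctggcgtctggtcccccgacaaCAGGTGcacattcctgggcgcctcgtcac
Chrng: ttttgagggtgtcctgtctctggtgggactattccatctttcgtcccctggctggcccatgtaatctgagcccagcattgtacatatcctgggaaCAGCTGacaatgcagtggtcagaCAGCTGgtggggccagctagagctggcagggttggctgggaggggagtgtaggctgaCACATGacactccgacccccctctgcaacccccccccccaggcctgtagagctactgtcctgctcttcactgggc
Chrne: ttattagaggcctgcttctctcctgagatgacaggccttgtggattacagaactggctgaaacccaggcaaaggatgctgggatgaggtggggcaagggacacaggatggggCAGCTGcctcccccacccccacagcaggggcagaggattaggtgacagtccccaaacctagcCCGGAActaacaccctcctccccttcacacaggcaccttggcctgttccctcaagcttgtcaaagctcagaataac

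Chrna1, Chrnb1, Chrng and Musk each held 3 E-boxes, which 12.2% of all 32851 such windows reach or exceed, while 66.2% hold at least 1. In Chrna1 CAGCTG began at 92 and at 44 bases before the start, and CAGGTG at 73. The Chrng window held CAGCTG at 155 and 132 bases and CACATG at 75, and the one for Musk held CATCTG at 177, CACTTG at 100 and CAGCTG at 68. Chrnb1 had CATTTG at 119 bases, CAGTTG at 96 and CAGGTG at 29. The Chrne window had a single E-box, CAGCTG at 138 bases, and was the only one of the 9 with the N-box letters, at 76 bases, which 12% of all windows hold. No E-box overlapped the N-box. The remaining windows, of Dok7 and Agrn, held at most 1 E-box. Of their 250 bases, 195 and 250 in the windows of Dok7 and 45 and 250 in those of Agrn lie inside the gene's annotated span. These matches describe letters and not bound sites.

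Each gene was summarised on each array as the median over its probe sets (log2 scale), and insulin minus control was tested with limma over the 14291 genes that were not dim, with Benjamini-Hochberg adjustment. A gene is called when its adjusted p is under 0.05, and errors of changes are standard errors (SE) of that fit. Of all tested genes 15.9% were called, 6.35% lower and 9.56% higher. Arrays without overlap, all 3 insulin arrays below all 3 controls, were found in 15.7% of tested genes and in 8 of the 10 members (the reverse in 20.0% and in none). All 10 members passed the filter on dim genes, 6 were called lower (60%), and none was called higher by limma. At limma's unadjusted p under 0.05 they numbered 7 lower and 0 higher. The share of all tested genes was not taken at that unadjusted threshold, here or for the later counts that use it. With single arrays left out in turn the members called lower numbered 6, 4 and 5 for controls 1, 2 and 3 and 4, 3 and 4 for insulin arrays 1, 2 and 3. Over all tested genes 908 were called lower on all arrays. The same arrays left out gave 827, 429 and 969 for the controls and 462, 382 and 404 for the insulin arrays. When every gene was read from its brightest probe set, 3 members were called lower, and 614 over all tested genes. With the median over probe sets, the 10 members had a median change of -0.31 on the log2 scale, against -0.0028 over all tested genes. The array medians of the deposited table lay between 8.79 and 8.82. In bulk RNA, fewer cells of a type and less of an RNA per cell cannot be told apart, and the labels name the arrays biological replicates without saying more about separate cultures.

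**Figure D1:**
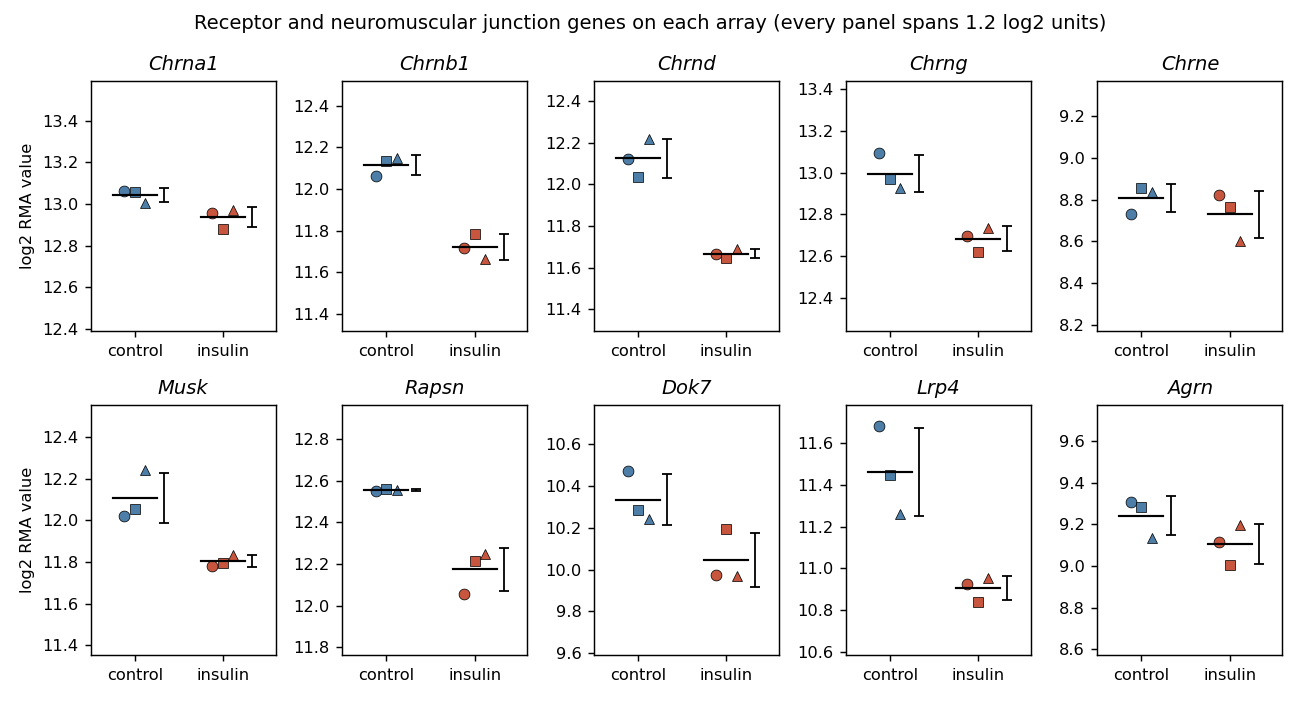
Log2 RMA value of each member on each array, with controls in blue and insulin in red (circle, square and triangle are replicates 1, 2 and 3), the mean as a bar and the SD beside it. Insulin arrays lie wholly below control arrays in every panel except Chrne and Agrn.

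Of the 5 receptor subunits, the delta, beta and gamma genes fell after insulin, while alpha 1 and epsilon did not pass. Chrnd, the delta subunit, read 12.12, 12.03 and 12.22 on the log2 scale in the controls and 11.66, 11.65 and 11.69 after insulin. The insulin arrays lay within a narrow band below every control. The change of Chrnd was -0.46 ± 0.07 (SE), a 1.37-fold lower level (limma adjusted p = 0.00506). Chrnb1, the beta 1 subunit, read 12.06, 12.13 and 12.15 in the controls and 11.71, 11.78 and 11.66 after insulin. Its groups did not overlap either, and it changed by -0.39 ± 0.07 (SE), or 1.31-fold (limma adjusted p = 0.00711). Both calls held when any single array was left out, with adjusted p up to 0.0282 for Chrnd and 0.0371 for Chrnb1. With each gene's brightest probe set in place of the median, Chrnd was at -0.28 and still called (0.0411), and Chrnb1 at -0.23 and not called (0.0835).

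Chrng, the gamma subunit of the fetal receptor, went from 13.09, 12.97 and 12.92 in the controls to 12.69, 12.62 and 12.74 after insulin. Control 1 was the highest array, and no insulin array reached any control. The change was -0.31 ± 0.07 (SE), or 1.24-fold (limma adjusted p = 0.0242). This call lay close to the threshold. Chrng did not pass without control 2 (0.0674), without insulin 1 (0.0727), without insulin 2 (0.0964), without insulin 3 (0.0604) or with its brightest probe set (0.0545), while its change stayed between -0.35 and -0.26 over the arrays left out in turn.

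Chrna1, the alpha subunit that carries most of the acetylcholine binding site, read 13.06, 13.06 and 13.01 in the controls and 12.96, 12.88 and 12.97 after insulin. Its insulin arrays lay wholly below its controls, but by little: the change was -0.11 ± 0.06 (SE) with a 95% interval from -0.25 to 0.037 (limma adjusted p = 0.305). The result depended on how its 12 probe sets were combined. With the mean of the probe sets Chrna1 changed by -0.20 and passed (limma adjusted p = 0.0335). When each probe set was first centred on its own mean over the 6 arrays, a summary added after seeing the data, it changed by -0.17 ± 0.05 (SE) and passed as well (0.0319).

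Chrne, the epsilon subunit of the adult receptor, read 8.73, 8.86 and 8.84 in the controls and 8.82, 8.76 and 8.60 after insulin. The groups overlapped, and the difference of -0.08 ± 0.08 (SE) was no larger than the spread between arrays (95% interval -0.26 to 0.10, limma adjusted p = 0.556). Whether gamma and epsilon changed differently was asked of the value of Chrng minus that of Chrne within each array, which read 4.36, 4.11 and 4.09 in the controls and 3.87, 3.86 and 4.13 after insulin. Insulin 3 lay among the controls, and the difference of differences, -0.23, gave p = 0.3 in the two-sided exact permutation test, where 0.1 is the smallest p that 3 against 3 arrays allow. With the mean, the brighter or the centred probe sets the groups did not overlap and p was 0.1. As this test cannot go below 0.1, it does not settle whether the fetal and the adult subunit changed differently. Only the change of this value is read, since probe brightness differs between genes.

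Among the clustering genes the largest change of all members was in Lrp4, the agrin receptor. Lrp4 read 11.68, 11.45 and 11.26 in the controls and 10.93, 10.84 and 10.95 after insulin. The controls were spread over a wider range than the insulin arrays, with control 1 highest, and still no array overlapped. The change of Lrp4 was -0.56 ± 0.11 (SE), or 1.47-fold (limma adjusted p = 0.0117). Without control 1 it was -0.45 and still called, and the call was lost narrowly without insulin 2 (-0.52, adjusted p = 0.0528) and with the brightest probe set (-0.40, 0.0633).

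Rapsn, encoding rapsyn, read 12.55, 12.56 and 12.56 in the controls and 12.06, 12.21 and 12.25 after insulin. The controls were nearly equal, and all insulin arrays lay below them. Rapsn changed by -0.38 ± 0.07 (SE), or 1.30-fold (limma adjusted p = 0.0109), a call that held when any single array was left out (adjusted p up to 0.0431). With the brighter probe sets alone it was -0.19 and just missed the threshold (0.0515).

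Musk, encoding the receptor kinase, went from 12.02, 12.06 and 12.24 to 11.78, 11.79 and 11.83. Control 3 was highest and the insulin arrays were tightly grouped below the controls. The change of -0.30 ± 0.08 (SE), or 1.23-fold, passed (limma adjusted p = 0.0328). Of the 6 fits with a single array left out, Musk passed in the one without control 1 (0.0282). It did not pass without control 2 (0.0724), control 3 (-0.23, 0.0553), insulin 1 (0.103), insulin 2 (0.105) or insulin 3 (0.0881). Of the alternatives on all arrays, the one without a filter on dim genes ended its call (0.0606).

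Dok7, encoding the MuSK activator, read 10.47, 10.29 and 10.24 in the controls and 9.98, 10.20 and 9.97 after insulin. Insulin 2 came close to the lowest control without crossing it. The change of -0.29 ± 0.09 (SE), or 1.22-fold, did not pass (95% interval -0.50 to -0.074, limma adjusted p = 0.0743). It passed with the mean of its probe sets (-0.27, 0.00971), the brighter ones (-0.31, 0.0171), centred ones (-0.27, 0.00694), array quality weights (-0.24, 0.0253) or a filter at the 50th percentile (0.0491). Agrn, encoding agrin, which muscle makes in forms that cluster receptors far less than nerve agrin, read 9.31, 9.28 and 9.14 in the controls and 9.11, 9.01 and 9.19 after insulin. Insulin 3 lay above control 3, and the difference of -0.14 ± 0.08 (SE) did not pass (95% interval -0.32 to 0.046, limma adjusted p = 0.299), though it did with array quality weights (-0.18, 0.0473).

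**Figure D2:**
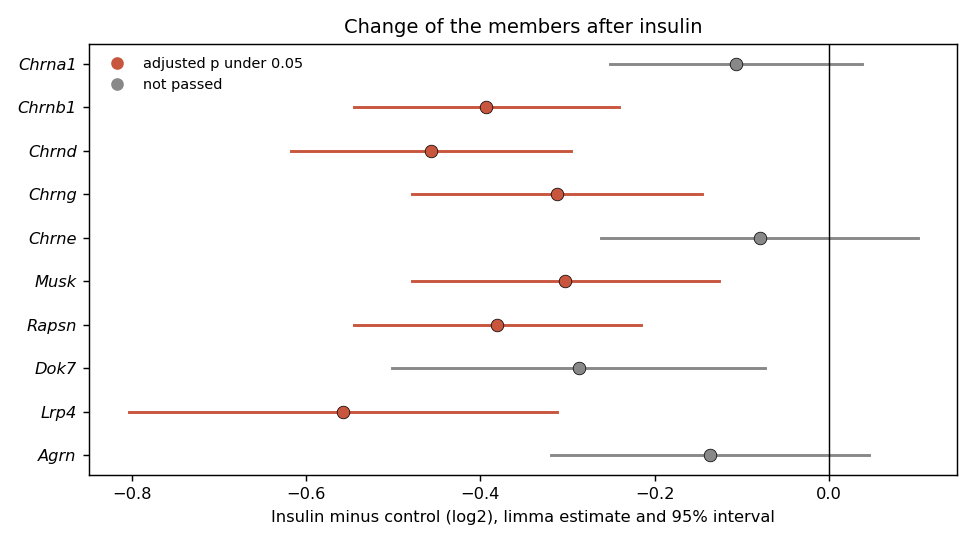
Insulin minus control on the log2 scale for the 10 members, as limma's estimate with its 95% interval, in red where the adjusted p is under 0.05. The interval spans 0 for Chrna1, Chrne and Agrn, while that of Dok7 does not although its adjusted p is 0.0743.

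With centred probe sets, 8 of the 10 members were called lower, Chrna1 and Dok7 being added, against 11.3% of all tested genes under that summary (26.7% called in either direction). In the main summary the choice of probe set at the median can differ from array to array. For Chrnd 1 probe set moved between 12.01, 9.65 and 12.22 in the controls and 10.90, 9.60 and 10.86 after insulin, a wider spread than in any of the other 14, and the centred value of the gene was -0.33 ± 0.06 (SE) instead of -0.46. The order of the subunits by size of change is therefore not fixed, with Chrnb1 at -0.34, Chrnd at -0.33 and Chrng at -0.29 in the centred summary, while Lrp4 remained furthest from 0 at -0.50 ± 0.08 (SE).

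The single probe sets show how far the parts of each transcript moved alike. Of the 178 member probe sets 166 (93.3%) were lower after insulin, and 174 were bright enough to be tested. Limma called 20 of these lower (11.5%) and none higher, against 1.44% and 3.43% of the 169103 tested probe sets (4.87% in either direction). At limma's unadjusted p under 0.05 the numbers were 113 lower and 1 higher, without a share over all tested probe sets to set beside them. The 20 calls, those of Lrp4 included, changed with the filter and the arrays, and so did the 8235 calls over all tested probe sets. Without a filter on dim probe sets no member probe set was called (107 lower at an unadjusted p under 0.05), and 2960 were called over the whole table. With arrays left out the number of members' probe sets called was 4 without control 1 and 16 without control 3. It was 0 without control 2, insulin 1, insulin 2 or insulin 3, where 91, 96, 89 and 95 were lower at an unadjusted p under 0.05. Over all tested probe sets 4124 were called without control 1 and 5224 without control 3. Without control 2, insulin 1, insulin 2 or insulin 3 these were 1309, 698, 553 and 429. Over all 178, 117 had their insulin arrays wholly below the controls, as had 10.2% of all probe sets of the table, and 1 wholly above, as had 13.4%.

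Lrp4 held 14 of the 20 called probe sets, and all 38 of its probe sets were lower, 36 without overlap. Their changes ran from -0.74 to -0.22 with a median of -0.51. All 13 probe sets of Chrng were lower without overlap, within a range of -0.38 to -0.20, though none passed by itself (11 at an unadjusted p under 0.05). The 12 of Chrnb1 and the 9 of Rapsn were likewise all lower without overlap, with 2 and 1 called, and ranges of -0.52 to -0.23 and -0.41 to -0.14.

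In Chrnd all 15 probe sets were lower, 13 without overlap and 1 called. Musk had 16 of 17 lower, 13 without overlap and 2 called, with a median of -0.30. The 11 probe sets of Dok7 were all lower, 7 without overlap, between -0.34 and -0.15, and none of its 10 tested ones passed (7 at an unadjusted p under 0.05). In these genes the lower values were spread over nearly all probe sets.

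Chrna1 had all 12 probe sets lower and 9 without overlap, but none passed (5 at an unadjusted p under 0.05). Ranked by mean level, its dimmer 6 probe sets had a median change of -0.32 and its brighter 6 one of -0.15. The brightest, at a mean of 13.99 in a table that ends at 14.55, changed by -0.080. Split the same way, the dimmer and brighter probe sets had medians of -0.38 and -0.28 in Chrnb1, -0.35 and -0.32 in Chrnd, -0.31 and -0.29 in Chrng, and -0.53 and -0.49 in Lrp4. The order was the reverse in Musk (-0.28 and -0.31), Dok7 (-0.25 and -0.31) and Chrne (0.072 and -0.13), and nearly level in Rapsn (-0.29 in both) and Agrn (-0.16 and -0.14). No single order by brightness held across the members.

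Chrne and Agrn differed from these in that their probe sets went both ways. Of 12 Chrne probe sets 8 were lower and 4 higher, from -0.24 to 0.31, with 1 wholly below the controls and none called (1 at an unadjusted p under 0.05). Of 39 Agrn probe sets 32 were lower and 7 higher, 4 wholly below and 1 wholly above. The last of these read 7.31, 7.06 and 7.28 in the controls and 7.87, 7.33 and 7.71 after insulin, a difference of 0.42 ± 0.15 (SE) that did not pass (limma adjusted p = 0.180). Limma called no Agrn probe set, with 7 lower and 1 higher at an unadjusted p under 0.05.

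**Figure D3:**
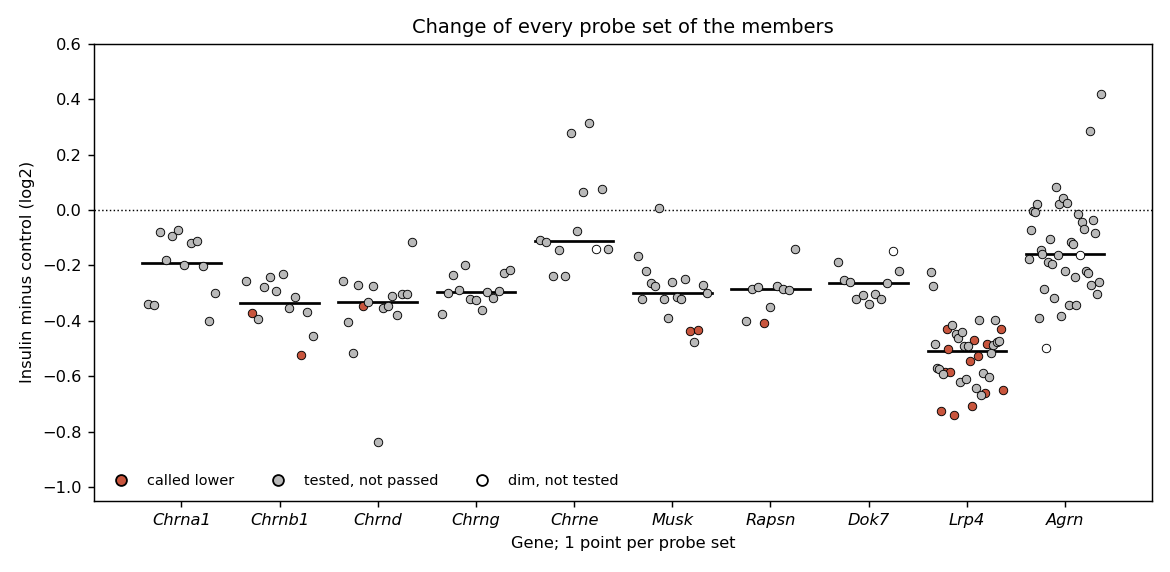
Insulin minus control on the log2 scale for each of the 178 member probe sets, ordered by probe set number within a gene (red called lower, grey tested and not passed, white too dim to be tested), with the gene's median as a bar. Every point of Chrna1, Chrnb1, Chrnd, Chrng, Rapsn, Dok7 and Lrp4 lies below 0, while Chrne and Agrn have points on both sides.

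Other genes of the pathway were counted in 7 lists compiled from general knowledge, with 85 names, of which 81 had probe sets and 70 were tested. Over all lists 16 fell, 5 rose and 49 did not pass, with a median change of -0.071. The members' median was -0.31, and no test compared the lists.

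Of 17 tested signalling partners of MuSK 3 fell and none rose by limma (4 lower and 1 higher at an unadjusted p under 0.05), with a median of -0.049. Sorbs2, an adaptor of the actin skeleton that ABL kinases bind, fell by 0.55 ± 0.07 on the log2 scale (SE, limma adjusted p = 0.00322). Fyn, a Src-family kinase, fell by 0.38 ± 0.07 and Crkl, an adaptor recruited by DOK7, by 0.36 ± 0.09, with adjusted p of 0.0132 and 0.0282. The call of Fyn was lost without control 2, insulin 2 or insulin 3 (adjusted p from 0.0527 to 0.0573) and that of Crkl without control 1, control 2, insulin 2 or insulin 3 (0.0518 to 0.0986), and all 3 were lost with the brightest probe set, where Sorbs2 was -0.21 and Crkl -0.20.

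In the synaptic basal lamina and esterase list 3 of 13 tested genes fell, 1 rose and 9 did not pass, with a median of -0.22. Nid2 (nidogen 2) fell by 0.51 ± 0.07 (SE, limma adjusted p = 0.00322) and Lamb2, the laminin beta 2 chain enriched at the synapse, by 0.48 ± 0.09 (0.00934), both whichever array was left out, though Lamb2 not with its brightest probe set (0.0618). Ache, the esterase that ends the acetylcholine signal, read 9.55 ± 0.14 in the controls and 9.26 ± 0.01 after insulin (SD, n = 3) and passed at the margin (-0.30, limma adjusted p = 0.0434), but not without control 1, control 2 or any of the insulin arrays (0.0921 to 0.142), nor with no filter (0.0772). Colq, the collagen tail that anchors it, changed by -0.22 ± 0.08 (SE, adjusted p = 0.105) and passed with the mean of its probe sets (-0.28, 0.00452), the brighter ones (-0.31, 0.0134) or array quality weights (-0.20, 0.0369). Nid1 was the gene that rose, by 0.27 ± 0.06 (SE), a call lost without control 2 or any of the insulin arrays (0.0559 to 0.0892) and with the brightest probe set (0.12).

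The neuregulin list, named for a nerve signal that acts through ErbB receptors, was split. Of 7 tested genes 2 fell, 1 rose and 4 did not pass, with a median of 0.039. Erbb3 fell from 11.58 ± 0.07 to 11.02 ± 0.02 (SD, n = 3), a change of -0.56 ± 0.06 (SE, limma adjusted p = 0.00188), and its partner Erbb2 by 0.52 ± 0.13. Erbb2 was not called without control 2 or any of the insulin arrays (adjusted p from 0.0640 to 0.0955), nor with its brightest probe set (-0.15) or with no filter (0.0501). The ETS factor gene Etv4 rose by 0.44 ± 0.08, at 0.24 and not called with its brightest probe set, while Etv5 (0.025 ± 0.061) and the N-box factor gene Gabpa (0.039 ± 0.069) did not pass, and their signs turned in some alternatives given in the closing section. Erbb4 was too dim to be tested.

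Of the 14 tested E-box factors and activity-dependent regulators 7 fell, 1 rose and 6 did not pass, with a median of -0.25. The myogenic factor genes Myod1, Myog and Myf6 fell by 0.57 ± 0.07, 0.27 ± 0.06 and 0.35 ± 0.08 on the log2 scale (SE). Id3, which blocks such factors, fell by 1.13 ± 0.07, and Hdac9, a deacetylase that represses receptor genes in innervated muscle, by 0.50 ± 0.10. Besides these, Tcf4 (-0.29) and Hdac5 (-0.27) fell and Myf5 rose (0.29), with limma adjusted p of 0.0479, 0.0440 and 0.0228, and these 3 are named after their values were seen. Hdac4 changed by -0.037 ± 0.082 and did not pass, and Dach2 was below the filter at 5.37 in the controls and 5.53 after insulin. Myod1 and Id3 were called whichever array was left out, though with the brightest probe set Myod1 was at -0.31 and not called (0.0748). Myog was not called without control 2 or any of the insulin arrays (adjusted p from 0.0632 to 0.0998), Myf6 without control 2, insulin 1 or insulin 2 (0.0629 to 0.0669) and Hdac9 without any of the insulin arrays (0.0545 to 0.0596), and with the brightest probe set Hdac9 was at -0.28 and not called.

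At the dystrophin-linked membrane Sntb1 (syntrophin beta 1) fell by 0.36 ± 0.07 (SE), without insulin 2 just missing the threshold (limma adjusted p = 0.0510), and 4 of 5 tested genes did not pass. Utrn, encoding utrophin, changed by -0.25 ± 0.11 (adjusted p = 0.176), and passed without control 3 (-0.38, 0.0189) or with array quality weights (-0.31, 0.0110). Receptor assembly and glycosylation genes had a median of 0.087. Gmppb, which makes GDP-mannose, rose by 0.51 ± 0.11, Alg2, a mannosyltransferase, by 0.44 ± 0.12, and 7 of 9 did not pass. Neither rise was called without control 2, insulin 2 or insulin 3, nor Alg2 without insulin 1 (adjusted p from 0.0529 to 0.131), and Gmppb was at 0.24 with the mean of its probe sets. Of 11 neuronal nicotinic subunits 5 were bright enough to be tested and none passed, also at an unadjusted p under 0.05.

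**Figure D4:**
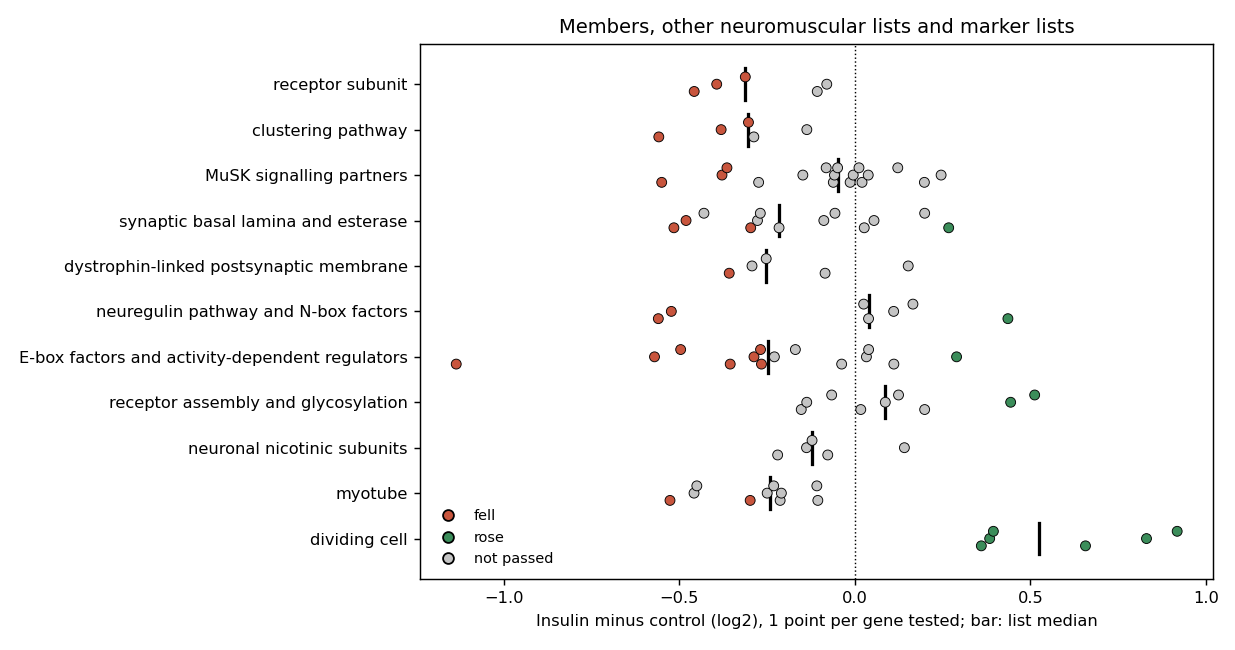
Insulin minus control on the log2 scale for each tested gene of the members' groups, the 7 pathway lists and the myotube and dividing cell markers, red where it fell, green where it rose and grey where it did not pass, with each list's median as a bar. Both member groups lie wholly below 0, and every marker of dividing cells lies above it.

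Markers of the cell state were read beside the members. Of 10 myotube markers 2 fell, none rose by limma and 8 did not pass (6 lower and none higher at an unadjusted p under 0.05), and 8 had insulin arrays wholly below the controls. Their mean level lay between 12.34 and 12.67 in the controls and between 12.19 and 12.25 after insulin, with a median change of -0.24, beside the members' -0.31. Control 1 had the highest myotube mean, at 12.67, but the controls were unevenly apart across the markers. They differed most in Neb (11.13, 10.37 and 9.84), Ttn (10.60, 10.21 and 9.97) and Myh8 (11.39, 11.31 and 10.82). Ckm and Mylpf were highest in control 2, so the order of the controls in this mean is not that of every marker. Among the members, control 1 was the highest control for 5 of the 10 (Chrna1, Chrng, Dok7, Lrp4 and Agrn). With centred probe sets it was highest for 8 of them, Chrnb1 and Chrne being the exceptions. All 6 markers of dividing cells with probe sets rose, from a mean of 10.97 to 10.98 in the controls to one of 11.55 to 11.58 after insulin. The part of these shifts in the members' changes was not tested.

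Markers of other cells at the junction were also read. The mean of 7 motor neuron markers lay between 7.08 and 7.27 in the controls and between 7.05 and 7.16 after insulin, near the filter level of 7.05. Chat, which makes acetylcholine, Slc5a7 and Mnx1 were below that level, and none of the other 4 passed, also at an unadjusted p under 0.05. For 4 Schwann cell markers the mean was 6.84 to 7.02 and 6.92 to 7.09, and none of 3 tested passed, also unadjusted, with Sox10 the highest at 8.29 in the controls and 8.43 after insulin. Of 5 fibroblast markers Dcn (decorin) fell by 0.57 ± 0.07 (SE), 2 did not pass and 2 were too dim. Thy1 was higher on every insulin array, by 0.27 ± 0.09 (limma adjusted p = 0.0695), and Pdgfra lower on every one, at -0.25 ± 0.09 (0.116), so that 2 were lower and 1 higher at an unadjusted p under 0.05. The list's mean went from between 7.84 and 7.90 to between 7.69 and 7.81.

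The genes whose pattern was most like the mean of the 5 subunits were Rabgap1, Tnni2, Tmem50a, Aktip and Pde4d. Likeness was the Euclidean distance over the 6 arrays between log2 values centred on each gene's mean, and it ran from 0.032 for Rabgap1 to 0.049 for Pde4d. As these genes were picked by that distance, their lower values after insulin follow from the choice and are no separate result. The subunit mean itself stood 0.13, 0.13 and 0.14 above its centre in the controls and lay at -0.11, -0.14 and -0.15 after insulin. Rabgap1, a GTPase-activating protein, changed by -0.25, Tnni2, the fast skeletal troponin I, by -0.26, Tmem50a by -0.26, Aktip by -0.24 and the phosphodiesterase gene Pde4d by -0.30. Without control 2, insulin 2 or insulin 3 limma called none of these 5 (adjusted p from 0.0564 to 0.112), and without insulin 1 only Pde4d (0.0469). With the brightest probe set Tnni2 and Tmem50a were both at -0.073 and not called (0.448 and 0.432). Rabgap1 was at -0.17 and not called with the mean of its probe sets (0.0791), and Pde4d was at -0.19 and not called with the brighter ones (0.0776).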

How the data were processed

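The deposited log2 table has a single value for each probe set on each of the 6 arrays. RMA is named in the submitters' processing notes, with no version; RMA corrects background, equalizes the arrays by quantiles and summarises probes. No source used here states the log base, which was inferred from the range of 3.15 to 14.55. Per the labels' protocols, whole transcriptomes were amplified from 25 ng of RNA. As RMA equalizes arrays, changes are relative to the other transcripts.

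Symbols came from GEO's platform annotation, with 212097 probe sets naming 1 gene. Genes (medians of their probe sets) and probe sets were each fitted with limma 3.58.1 in R 4.3.3 (lmFit, eBayes, two-sided, no covariates), leaving out those with means under the 30th percentile (7.05 for genes, 7.36 for probe sets). The fit was tested on simulated data. No detection calls were used here, and the number of arrays limits precision.

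The members and lists were chosen with earlier results of these data known. Besides all members, up to 4 called genes per list by smallest p were named, and always Ache, Colq, Utrn, Erbb3, Myod1, Myog, Dach2, Hdac4, Etv5 and Gabpa. Alternatives were the replicate block, 2 normalizations, filters, variance models, probe set summaries and each array left out, with centred probe sets added after seeing the data. The labels number the replicates without stating a pairing. Same-numbered arrays deviated together little (r = 0.025, 0.19 and -0.00036), though the 0.19 of replicate 2 was the highest between any control and insulin array. With 3 arrays per group this does not settle whether the numbers pair them.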

Additional observations from a re-analysis of the deposited data

How the results depend on the processing

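The 10 members were lower after insulin in all 17 alternatives run. Of 170 member values under an alternative 147 kept their side of the threshold, 15 were lost and 8 gained. The members called numbered 3 with the brightest probe set, and from 3 (without insulin 2) to 6 over the arrays left out in turn; receptor subunits called numbered 1 with the brightest probe set. Over all genes 2274 were called, 5007 with array quality weights, 3436 with the mean of probe sets and 3810 with centred ones, and from 1045 to 2449 over the arrays left out. Of probe sets 8235 were called, 656 with the replicate block, 2960 with no filter, 14395 with a trend and robust prior, 31205 with array weights and from 429 to 5224 over the arrays left out. Member probe sets called lower were 0 with the replicate block and 0 with no filter (102 and 107 lower at limma's unadjusted p under 0.05), 49 with the 50th percentile filter, 78 with the robust prior and 102 with array weights, and from 0 to 16 over the arrays left out. With the replicate block 6 members were still called lower, while Ache (adjusted p = 0.0572), Nid1 (0.0520) and Myog (0.0543) were not. The difference of Chrng and Chrne ran from -0.32 to -0.14 over the arrays left out. Signs turned for uncalled genes only: Hdac4 ran from -0.094 to 0.040 over the arrays left out (0.040 without control 1), Etv5 was -0.0019 after repeated quantile normalization and -0.038 with the brightest probe set, and Gabpa ran from -0.0092 (without control 3) to 0.076. The cause of these shifts was not tested. Signal over background was not judged, so dim probe sets may not measure RNA.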
